A study of Rattus norvegicus with 12 samples.

Results

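The transcripts of 10 regulators of cardiac energy metabolism were followed in cultured heart muscle cells from newborn Sprague Dawley rats. The regulators were the coactivator genes Ppargc1a and Ppargc1b, the estrogen-related receptor genes Esrra, Esrrb and Esrrg, the receptor genes Ppara and Ppard, their partner Rxra, and Nrf1 and Tfam. These regulators and the gene lists used below were chosen with earlier results of these data known, so their shares of calls are descriptive. By gene symbol all 10 were found among the 14506 genes measured, each with 1 probe set on an Affymetrix whole-transcript array. The 4 groups, of 3 arrays each, were cells with an siRNA against p300 after 8 h of doxorubicin (p300kd T8) or before it (p300kd T0), and cells with a non-silencing siRNA after 8 h (NS T8) or before it (NS T0). Every culture, the controls included, had been transfected, treated with bromodeoxyuridine to hold back fibroblasts and kept without serum for 48 h. The dose was 1 µM, and the 0 h cultures were the untreated ones, so that drug and time cannot be told apart. Per the labels the primary cultures held over 90% myocytes, and each group had biological replicates 1 to 3. Arrays of the same number deviated together across groups, so the number is called the experiment here, although the labels do not say what the replicates of 1 number shared. The comparisons ask how the drug, the loss of p300 and their combination altered transcript levels.

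PGC-1α and PGC-1β, the proteins of Ppargc1a and Ppargc1b, do not bind DNA themselves. They dock on nuclear receptors such as the estrogen-related receptors (ERRs) and the peroxisome proliferator-activated receptors (PPARs), which bind DNA as partners of RXRα, the product of Rxra, in the case of the PPARs. In the heart these factors switch on genes of fatty acid oxidation and of the respiratory chain, and NRF1 and the mitochondrial factor TFAM link them to the mitochondrial genome. p300, encoded by Ep300, is an acetyltransferase that serves many transcription factors as a coactivator. Doxorubicin is an anthracycline that poisons topoisomerase II and is known for its toxicity to the heart.

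Values are log2 intensities, and a change is a difference of 2 group means on that scale. A gene was called when its adjusted p was under 0.05 in limma's moderated test over all genes, with Benjamini-Hochberg adjustment. The median log2 intensity of an array lay between 7.73 and 7.80, and log2 differences of 2 arrays within any group had an SD of 0.154 to 0.265. All 10 cardiac myocyte markers stood above the 25th percentile of gene means (6.87 log2), and the log2 of their summed intensity ran from 16.58 to 16.76 in p300kd T8, from 16.58 to 16.77 in p300kd T0, from 16.66 to 16.80 in NS T8 and from 16.68 to 16.74 in NS T0. Ep300 averaged 9.85 ± 0.233 in p300kd T8 against 10.77 ± 0.0817 in NS T8, and 10.16 ± 0.215 in p300kd T0 against 11.11 ± 0.0838 in NS T0 (SD, n = 3 each). It was thus at 52.9% of the NS level after the drug and at 51.9% before it. Its change averaged over both times was -0.93 (SE 0.0894, adjusted p = 0.00212, limma), a call that was lost without experiment 2 or without experiment 3, with values between -1.02 and -0.88 over all alternatives. The calls at a single time were less steady. At 8 h (adjusted p = 0.0271, limma) the call was lost under 12 of 25 alternatives, and at 0 h (0.0404) under 13 of 25.

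Most of these regulators fell after 8 h of doxorubicin, with either siRNA. In p300kd cells 8 of the 10 fell and 0 rose, against 17.5% of all genes called lower and 13.9% called higher. In NS cells 7 of the 10 fell and 0 rose, against 16.4% of all genes called lower and 11.1% called higher. The median change of the 10 was -0.70 in p300kd cells and -0.69 in NS cells, beside a median over all genes of 0.04 in both. The 3 arrays at 8 h lay wholly below the 3 at 0 h for 9 of the 10 in p300kd cells (21.6% of all genes) and for 8 of the 10 in NS cells (21.2% of all genes). With the experiment as a block 9 and 8 fell, beside 22.8% and 21.9% of all genes called lower. In bulk RNA, fewer cells of a type and less RNA per cell cannot be told apart. Without experiment 2 the number called in NS cells was 3, Ppargc1b, Esrrg and Nrf1.

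**Figure D1:**
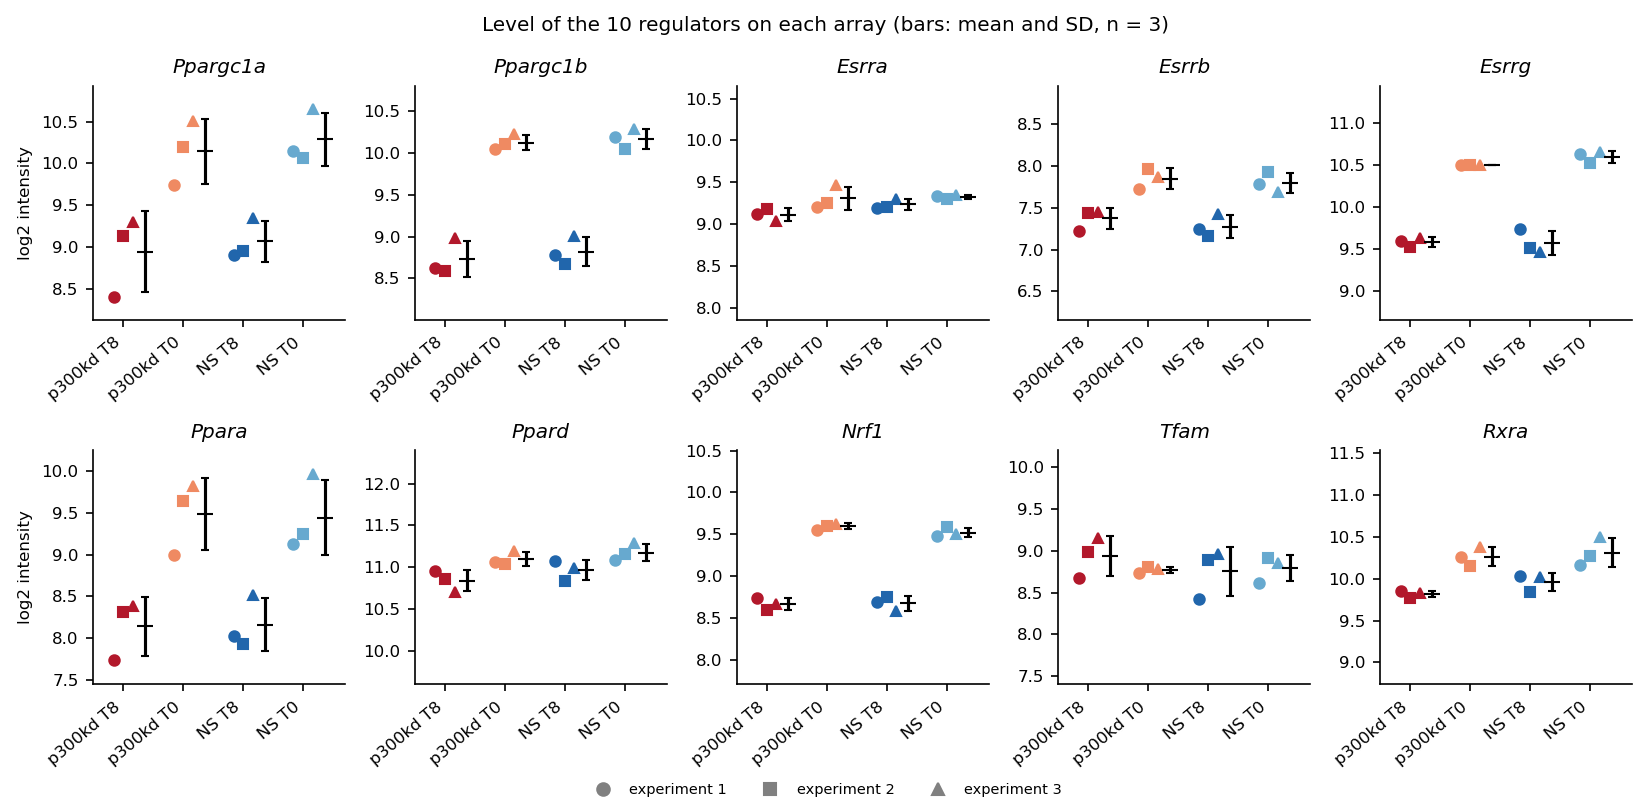
Log2 intensity (y axis) of the 10 regulators on each of the 12 arrays, by group (x axis), with 1 symbol per experiment and black bars for the mean and SD of 3 arrays; each panel spans the same number of log2 units. Ppargc1a, Ppargc1b, Esrrg, Ppara and Nrf1 stand lower at T8 than at T0 with either siRNA, while the times lie close together for Esrra and Tfam.

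Both PGC-1 coactivator genes fell to about the same share of their untreated level. In p300kd cells Ppargc1a had 8.40, 9.14 and 9.30 in experiments 1 to 3 at 8 h, against 9.74, 10.19 and 10.51 at 0 h. With NS siRNA it had 8.91, 8.95 and 9.35 at 8 h, against 10.14, 10.06 and 10.65 at 0 h. All 6 treated arrays were below all 6 untreated ones. Ppargc1a fell 2.30-fold in p300kd cells (log2 change -1.20, SE 0.248, adjusted p = 0.00268, limma), which left 43.5% of the untreated level. In NS cells it fell 2.32-fold (-1.22, SE 0.248, adjusted p = 0.00290) and 43.1% was left. The difference was of 1 direction in 3 of 3 experiments in each, between -1.34 and -1.06 in p300kd cells and between -1.30 and -1.12 in NS cells. Without experiment 2 its adjusted p was 0.0531 in p300kd cells and 0.0626 in NS cells. With all arrays and the experiment as a block, its SE was 0.117 and its adjusted p 9.77e-07 and 1.14e-06 (limma).

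The promoter of Ppargc1a is known to be driven by CREB through a cAMP response element (CRE), and such an element is shown here because the gene is among the most lowered of the 10. In RefSeq's table of promoters (build GRCr8) the 250 bases before a Ppargc1a start hold the letters TGACGTCA on the plus strand, at chr14:63634087-63634174 with 40 bases on either side, from 181 to 174 bases before the start. The capitals mark the CRE.
Ppargc1a: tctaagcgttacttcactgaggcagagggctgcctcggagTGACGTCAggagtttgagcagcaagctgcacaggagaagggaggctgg
The same 8 letters, searched on both strands, stand in 1.59% of all 33469 such windows, and in 1 of the 12 windows of the 9 regulators that the table holds. A match describes the letters only, and whether the element is bound in these cells was not measured.

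Ppargc1b, the close relative of Ppargc1a, varied less between experiments. It had 8.62, 8.59 and 8.98 at 8 h in p300kd cells, against 10.04, 10.10 and 10.22 at 0 h. In NS cells the values were 8.78, 8.67 and 9.01 at 8 h, against 10.19, 10.04 and 10.28 at 0 h. The treated and untreated arrays stood more than 1 log2 unit apart. Ppargc1b fell 2.63-fold in p300kd cells (-1.39, SE 0.122, adjusted p = 5.78e-06, limma) and 2.55-fold in NS cells (-1.35, SE 0.122, adjusted p = 8.63e-06), which left 38.0% and 39.3%. Both calls held under all 25 alternatives.

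The 3 ERR genes moved by different amounts. Esrrg encodes ERRγ, an orphan receptor with a prominent part in the oxidative programme of the newborn heart. It had 9.59, 9.52 and 9.63 at 8 h in p300kd cells, against 10.50 at 0 h in each of the 3 experiments. The NS arrays had 9.74, 9.51 and 9.46 at 8 h, against 10.63, 10.52 and 10.65 at 0 h. The fall was 1.89-fold in p300kd cells (-0.92, SE 0.0853, adjusted p = 8.16e-06, limma) and 2.04-fold in NS cells (-1.03, SE 0.0853, adjusted p = 4.54e-06), called under all 25 alternatives.

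Esrrb, whose product ERRβ is best known from stem cells and the placenta in the mouse, fell less. Its means were 7.37 ± 0.126 in p300kd T8 against 7.85 ± 0.121 in p300kd T0, and 7.27 ± 0.133 in NS T8 against 7.80 ± 0.121 in NS T0 (SD, n = 3 each). The fall was 1.39-fold in p300kd cells (-0.48, SE 0.0993, adjusted p = 0.00283, limma) and 1.44-fold in NS cells (-0.53, SE 0.0993, adjusted p = 0.00178), the call in NS cells being lost without experiment 2 (adjusted p = 0.0629).

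Esrra, which encodes ERRα, the principal partner of PGC-1α at respiratory chain genes, was not called with either siRNA. It had 9.12, 9.18 and 9.03 at 8 h in p300kd cells, against 9.20, 9.26 and 9.47 at 0 h, and the treated arrays lay just below the untreated ones. In NS cells it had 9.20, 9.20 and 9.30 at 8 h, against 9.33, 9.30 and 9.34 at 0 h, with overlap. The change was -0.20 in p300kd cells (95% interval from -0.38 to -0.01, adjusted p = 0.0982, limma) and -0.09 in NS cells (from -0.28 to 0.09, adjusted p = 0.468). With the experiment as a block the value in p300kd cells passed (adjusted p = 0.0487). The intervals of Esrra and Esrrg do not overlap with either siRNA.

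The PPAR genes split likewise. Ppara encodes PPARα, the fatty acid sensor that drives fatty acid oxidation in heart and liver. It had 7.74, 8.31 and 8.38 at 8 h in p300kd cells, against 9.0, 9.64 and 9.82 at 0 h. In NS cells the values were 8.03, 7.93 and 8.52 at 8 h, against 9.12, 9.25 and 9.96 at 0 h. The arrays of the 2 times did not overlap, although the experiments differed widely within a group. Ppara fell 2.53-fold in p300kd cells (-1.34, SE 0.262, adjusted p = 0.00185, limma) and 2.43-fold in NS cells (-1.28, SE 0.262, adjusted p = 0.00291), leaving 39.4% and 41.1%. The call in NS cells was lost without experiment 2 (adjusted p = 0.0686). With all arrays and the experiment as a block, the SE was 0.124 and the adjusted p 6.21e-07 in p300kd cells and 1.24e-06 in NS cells (limma).

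Ppard encodes PPARδ, which also regulates fatty acid oxidation in the heart. Its means were 10.84 ± 0.128 in p300kd T8 against 11.10 ± 0.0857 in p300kd T0, and 10.96 ± 0.120 in NS T8 against 11.18 ± 0.105 in NS T0 (SD, n = 3 each). The fall of 0.26 in p300kd cells was narrowly called (SE 0.0930, adjusted p = 0.0497, limma), and the call was lost under 14 of 25 alternatives, among them the loss of experiment 2 or 3, of any 1 array of NS T0 or p300kd T0, NS T8 replicate 3 or p300kd T8 replicate 2 or 3, both rescalings of the arrays, and a fit of these 2 groups alone. The change of -0.21 in NS cells (SE 0.0930) did not pass (adjusted p = 0.111), but did so with the experiment as a fixed block (0.0409) and without experiment 1 (0.0445), though not with it as a random block (0.0522). Rxra, the partner that PPARα and PPARδ need to bind DNA, had 9.85, 9.77 and 9.83 at 8 h in p300kd cells, against 10.26, 10.15 and 10.38 at 0 h. Its NS values were 10.03, 9.84 and 10.02 at 8 h, against 10.16, 10.27 and 10.50 at 0 h. It fell 1.36-fold in p300kd cells (-0.45, SE 0.0998, adjusted p = 0.00442), a call lost without experiment 3 (adjusted p = 0.0545). In NS cells it fell 1.27-fold (-0.35, SE 0.0998, adjusted p = 0.0201), lost under 6 of 25 alternatives: both rescalings, without experiment 2 or 3, and without NS T0 replicate 3 or NS T8 replicate 2.

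Nrf1 and Tfam, which stand between the nucleus and the mitochondrial genome, went separate ways. NRF1 activates nuclear genes of the respiratory chain, and TFAM packages mitochondrial DNA and starts its transcription. Nrf1 had 8.73, 8.59 and 8.66 at 8 h in p300kd cells, against 9.56, 9.60 and 9.62 at 0 h. In NS cells it had 8.69, 8.75 and 8.58 at 8 h, against 9.48, 9.58 and 9.50 at 0 h. Its SE was the smallest of the 10, and it fell 1.91-fold in p300kd cells (-0.93, SE 0.0775, adjusted p = 3.96e-06, limma) and 1.80-fold in NS cells (-0.85, SE 0.0775, adjusted p = 9.15e-06), both under all 25 alternatives.

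Tfam is a known target of NRF1, and it was not called lower. It had 8.68, 8.99 and 9.15 at 8 h in p300kd cells, against 8.74, 8.81 and 8.78 at 0 h. The NS cultures had 8.42, 8.88 and 8.96 at 8 h, against 8.61, 8.91 and 8.86 at 0 h, and the groups overlapped with either siRNA. The changes were 0.17 in p300kd cells (95% interval from -0.16 to 0.49, adjusted p = 0.429, limma) and -0.04 in NS cells (from -0.36 to 0.28, adjusted p = 0.875). Without experiment 1 Tfam was called higher in p300kd cells (0.28, adjusted p = 0.0471), and over the alternatives its change there ran from 0.06 to 0.30. A fall as large as that of Nrf1 lies outside both intervals. The small negative values of Esrra and Tfam in NS cells depended on scale: both were positive in NS cells after quantile normalisation and after centring arrays at their medians, a step that put the median change over all genes at 0.14 in place of 0.04.

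**Figure D2:**
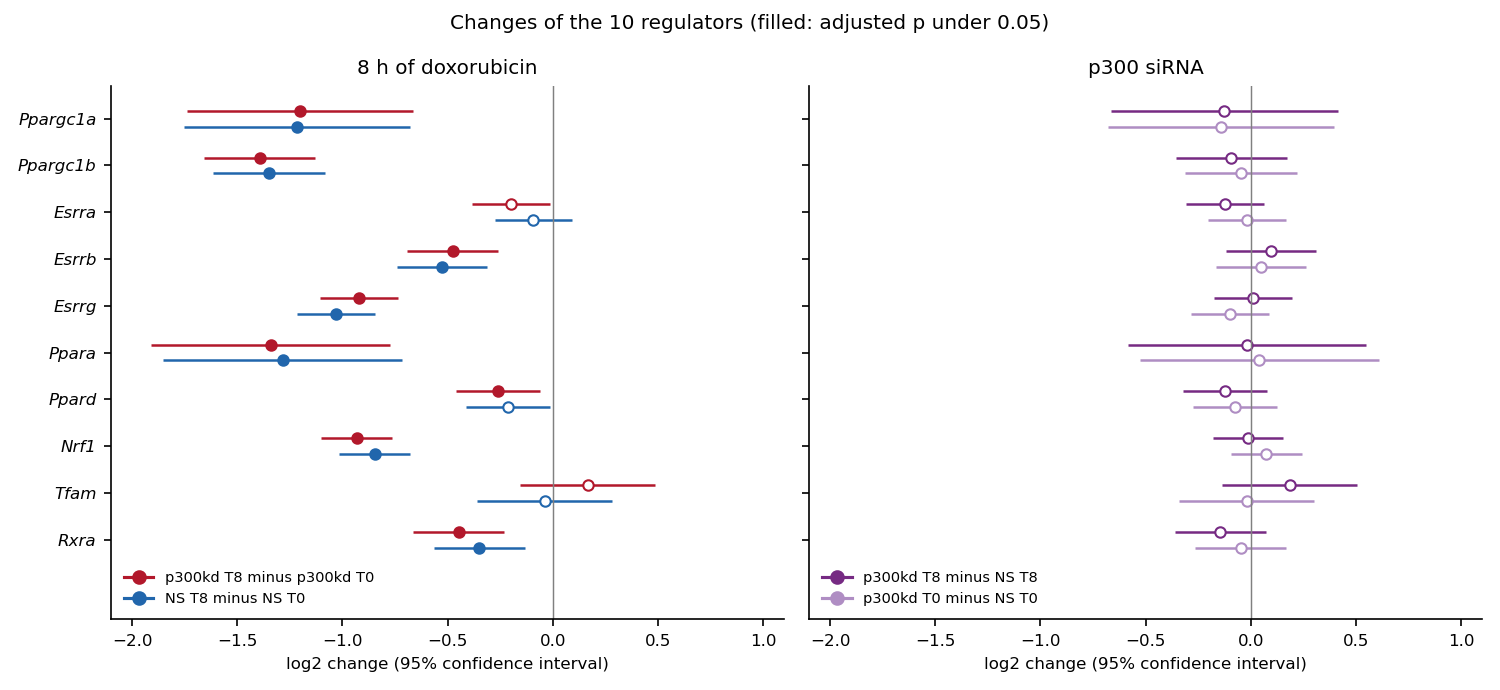
Log2 change (x axis) of the 10 regulators (y axis) with its 95% confidence interval, for 8 h of doxorubicin (left panel) and for the p300 siRNA (right panel); filled circles have an adjusted p under 0.05. The doxorubicin changes with the 2 siRNAs lie side by side, from -1.39 for Ppargc1b to 0.17 for Tfam, and every interval for the p300 siRNA includes 0.

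Promoter windows of Ppara, Esrra and Tfam are shown because NRF1 is among the lowered factors and these 3 genes hold elements that are known to be bound by NRF1 or by the ETS factor GABP, which is also called NRF2. The capitals mark GCATGCGC, the core of the NRF1 element, in Ppara (where it also stands on the other strand, 2 bases upstream and overlapping) and Esrra, and CCGGAAGT (the ETS element) in Tfam. The stretches lie at chr7:118712469-118712556 on the plus strand, at chr1:213543373-213543460 on the minus strand and at chr20:17355277-17355364 on the plus strand (RefSeq, GRCr8).
Ppara: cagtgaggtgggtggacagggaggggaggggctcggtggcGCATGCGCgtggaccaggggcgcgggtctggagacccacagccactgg
Esrra: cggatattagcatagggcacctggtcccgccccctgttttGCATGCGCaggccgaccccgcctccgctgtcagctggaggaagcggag
Tfam: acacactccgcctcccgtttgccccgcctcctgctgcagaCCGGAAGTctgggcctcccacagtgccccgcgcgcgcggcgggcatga
On both strands, the NRF1 core stood in 2.20% of all windows and the ETS element in 3.10%. Of these genes Ppara fell, and Esrra and Tfam were not called. The ERR element TCAAGGTCA and the PPAR element DR1, a repeat of AGGTCA that shares these letters with it, were in 0.388% and 0.0508% of all windows and in 0 of the 12 windows of the regulators. Ppard is not among the windows used here.

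No regulator of the 10 was called with less p300. With the p300 siRNA 0 of 10 were called at 8 h (limma, 0 of 10 with an unadjusted p under 0.05) and 0 of 10 at 0 h (0 of 10), where 0.0483% and 0.0207% of all genes were called. Ep300 itself kept its call under only 13 of 25 alternatives at 8 h and 12 of 25 at 0 h. Averaged over both times 0 of 10 were called as well (0 of 10 unadjusted; 1.25% of all genes). With the experiment as a block the counts for the regulators were also 0, while the share of all genes that passed was 3.14% after the drug, 2.69% before it and 9.51% over both times.

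The changes with the p300 siRNA lay between -0.14 (Rxra) and 0.18 (Tfam) at 8 h, and between -0.14 (Ppargc1a) and 0.07 (Nrf1) at 0 h. Averaged over both times, the 95% interval ran from -0.09 to 0.15 for Nrf1, from -0.17 to 0.09 for Esrrg, from -0.26 to 0.12 for Ppargc1b, from -0.51 to 0.25 for Ppargc1a and from -0.39 to 0.41 for Ppara. Falls of the size seen in Ep300 lie outside all of these intervals. For Ppargc1a the 3 experiments gave -0.51, 0.19 and -0.05 at 8 h and -0.41, 0.13 and -0.14 at 0 h, so that experiments 1 and 2 differed in sign. Esrrg had the only arrays that did not overlap at 0 h (13% of all genes), with 10.50 in all 3 p300kd T0 arrays against 10.63, 10.52 and 10.65 in NS T0, a change of -0.10 (adjusted p = 0.955). Esrra had the only ones at 8 h (11.1% of all genes), with a change of -0.12 (adjusted p = 0.777).

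No difference in the response to doxorubicin between the siRNAs was called. The interaction, the drug change in p300kd cells minus that in NS cells, called 0 of 10 regulators (limma, 0 of 10 with an unadjusted p under 0.05) and 0% of all genes. It was 0.01 for Ppargc1a (95% interval from -0.75 to 0.78), -0.04 for Ppargc1b (from -0.42 to 0.33), 0.11 for Esrrg (from -0.15 to 0.37), -0.06 for Ppara (from -0.86 to 0.74) and -0.09 for Nrf1 (from -0.32 to 0.15). Tfam had the largest value, 0.20 (from -0.25 to 0.66), and 3 of 3 experiments were positive. For Nrf1 3 of 3 were negative, and 26.0% of all genes had 1 sign in all 3 experiments. The intervals of Ppargc1a and Ppara were the widest of the 10, in a fit that ignores the experiment. With the experiment as a block the SE was 0.165 in place of 0.351 for Ppargc1a and 0.176 in place of 0.371 for Ppara. The 3 experiments gave -0.10, 0.06 and 0.09 for Ppargc1a and -0.17, -0.007 and 0.004 for Ppara. The blocked fit also called 0 of 10.

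Experiments differed from each other for some of the regulators and not for others. Ppargc1a, Ppargc1b and Ppara were highest in experiment 3 in 4 of 4 groups. The means of the experiments over the 4 groups spanned 0.66 for Ppargc1a, 0.70 for Ppara and 0.27 for Ppargc1b. For Nrf1 they spanned 0.042 and for Ppard 0.074. Tfam was lowest in experiment 1 in 4 of 4 groups, with a span of 0.33.

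By the root mean square difference of values centred per gene, over the 12 arrays, the regulator closest to Ppargc1a was Ppara (0.137 log2). Outside the 10, Trim63, which encodes the muscle ubiquitin ligase MuRF1, was closest to it (0.0868), followed by the muscarinic receptor gene Chrm2 (0.154), Sipa1l2 (0.172), Cpt1a, which encodes a carnitine palmitoyltransferase (0.187), and Fgf16 (0.193). Closest to Ppargc1b were Rcor2 (0.105), Pkdcc (0.135), Stard8 (0.138), the cardiac factor gene Gata4 (0.138) and Sipa1l2 (0.147). Trim63 had 8.29, 8.95 and 9.10 in p300kd T8 against 9.66, 9.84 and 10.15 in p300kd T0, and 8.67, 8.61 and 9.19 in NS T8 against 9.90, 9.82 and 10.39 in NS T0. These values follow both the fall after the drug and the higher level of experiment 3.

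**Figure D3:**
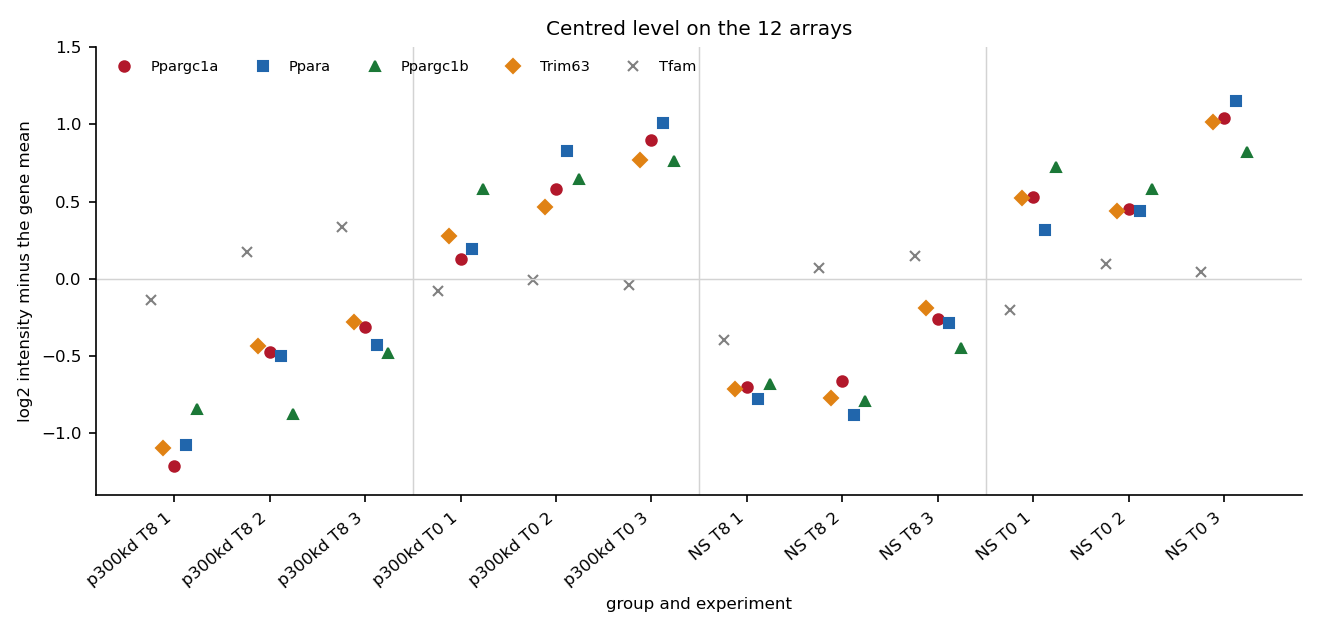
Log2 intensity minus each gene's mean over the 12 arrays (y axis) for Ppargc1a, Ppara, Ppargc1b, Trim63 and Tfam, by group and experiment (x axis). Ppargc1a, Ppara and Trim63 run close together on every array and Tfam stays near 0.

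Genes that PPARs are known to switch on in fatty acid uptake and oxidation did not fall along with the receptors as a group. Of 27 measured, 10 rose and 2 fell after the drug in p300kd cells, with a median change of 0.34 (0.04 for all genes; 13.9% of all genes rose and 17.5% fell). In NS cells 5 rose and 2 fell, with a median of 0.29 (0.04 for all genes; 11.1% rose and 16.4% fell). With the experiment as a block 19 rose and 2 fell in p300kd cells and 20 rose and 2 fell in NS cells, beside 22.9% and 21.6% of all genes called higher in that fit, and without experiment 2 no gene of the list rose with either siRNA. The medians were positive under both rescalings.

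Cpt1a, which encodes the enzyme that commits fatty acids to mitochondrial import, fell. It had 9.92, 10.38 and 10.29 in p300kd T8 against 11.10, 11.47 and 11.61 in p300kd T0, and 10.27, 10.59 and 10.58 in NS T8 against 11.18, 11.32 and 11.72 in NS T0. The change was -1.19 in p300kd cells (SE 0.171, adjusted p = 0.000207, limma) and -0.92 in NS cells (SE 0.171, adjusted p = 0.00152). Mlycd, whose enzyme removes malonyl-CoA, the inhibitor of that import step, also fell, at -0.54 in p300kd cells and -0.47 in NS cells. Among the rises, Angptl4, which encodes an inhibitor of lipoprotein lipase, had 0.61 in p300kd cells and 0.59 in NS cells. Acadm, which encodes the medium-chain acyl-CoA dehydrogenase, rose by 0.64 in p300kd cells, with 10.83, 11.14 and 11.39 at 8 h against 10.27, 10.50 and 10.67 at 0 h. In NS cells the Acadm mean went from 10.67 at 0 h to 11.12 at 8 h. Decr1 (0.78) and Acot2 (0.63) rose in p300kd cells, and their NS means went from 9.74 and 10.62 to 10.08 and 11.04. Acot1 (0.47), Fgf21 (0.30) and the lipid droplet gene Plin2 (0.29) rose in NS cells. In p300kd cells the means of these 3 went from 5.36, 6.95 and 11.51 at 0 h to 5.94, 7.05 and 11.82 at 8 h. Acot1 was dim, below the 25th percentile of gene means (6.87) in all 4 groups. The fatty acid transporter gene Cd36 did not pass, at 0.74 in p300kd cells and 0.48 in NS cells (adjusted p = 0.0591 and 0.233), and passed in the fit that blocks on experiment (2.75e-07 and 2.39e-05). Nor did Acadvl in p300kd cells (0.52) or Acsl1 in NS cells (0.49), and both passed in the blocked fit (1.28e-05 and 0.00154). Without experiment 2 the calls of Mlycd, Angptl4, Acadm, Decr1, Acot1, Acot2, Fgf21 and Plin2 were lost. The calls of Decr1, Acot1 and Acot2 were lost without experiment 3 too, and those of Fgf21 and of Mlycd in NS cells without experiment 1. Those of Decr1 and Acot2 in p300kd cells were lost under 11 and 7 of the 25 alternatives.

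Genes of oxidative metabolism that PGC-1 and the ERRs are known to regulate behaved alike in count. Most belong to the tricarboxylic acid cycle or respiratory chain, but others, such as Perm1 and Sod2, do not. Of 24 measured, 8 rose and 1 fell in p300kd cells (median 0.19) and 4 rose and 1 fell in NS cells (median 0.17), against the same shares of all genes as above. With the experiment as a block 19 and 17 rose and 1 and 1 fell, and without experiment 2 the rises numbered 1 in p300kd cells and 0 in NS cells. The gene that fell was Perm1, which encodes a muscle protein induced by PGC-1 and the ERRs. It had 6.99, 7.0 and 7.18 in p300kd T8 against 7.39, 8.17 and 8.48 in p300kd T0, and 7.05, 7.06 and 7.07 in NS T8 against 7.45, 8.04 and 8.47 in NS T0. Its 6 treated arrays were nearly level while the untreated ones spread by over 1 log2 unit, and the changes were -0.96 and -0.93 (adjusted p = 0.0121 and 0.0166, limma).

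The rises in that list included Sod2, which encodes the superoxide dismutase of mitochondria, at 0.74 in p300kd cells and 0.50 in NS cells. Cox5b, a subunit gene of complex IV, rose by 0.46 in p300kd cells and 0.42 in NS cells. Uqcrfs1 (0.59), of complex III, and Ndufs1 (0.54), of complex I, rose in p300kd cells, and Ndufb8 (0.48) and Cox6a2 (0.16) in NS cells. In p300kd cells the means of Ndufb8 and Cox6a2 went from 11.498 and 13.618 at 0 h to 11.945 and 13.788 at 8 h. Uqcrfs1 and Ndufs1 had 0.39 and 0.37 in NS cells and did not pass (adjusted p = 0.180 and 0.139), and Sdhb (0.38) and Sdha (0.37) did not pass in p300kd cells. In the blocked fit all 4 of these values passed (0.00102, 3.56e-05, 8.40e-05 and 4.31e-05, in that order). Without experiment 2 the calls of Perm1, Cox5b, Uqcrfs1, Ndufs1, Ndufb8 and Cox6a2 were lost, and that of Sod2 in NS cells. Without experiment 3 the calls of Perm1, Uqcrfs1, Ndufs1 and Cox6a2 were lost, and those of Sod2 and Cox5b in NS cells.

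**Figure D4:**
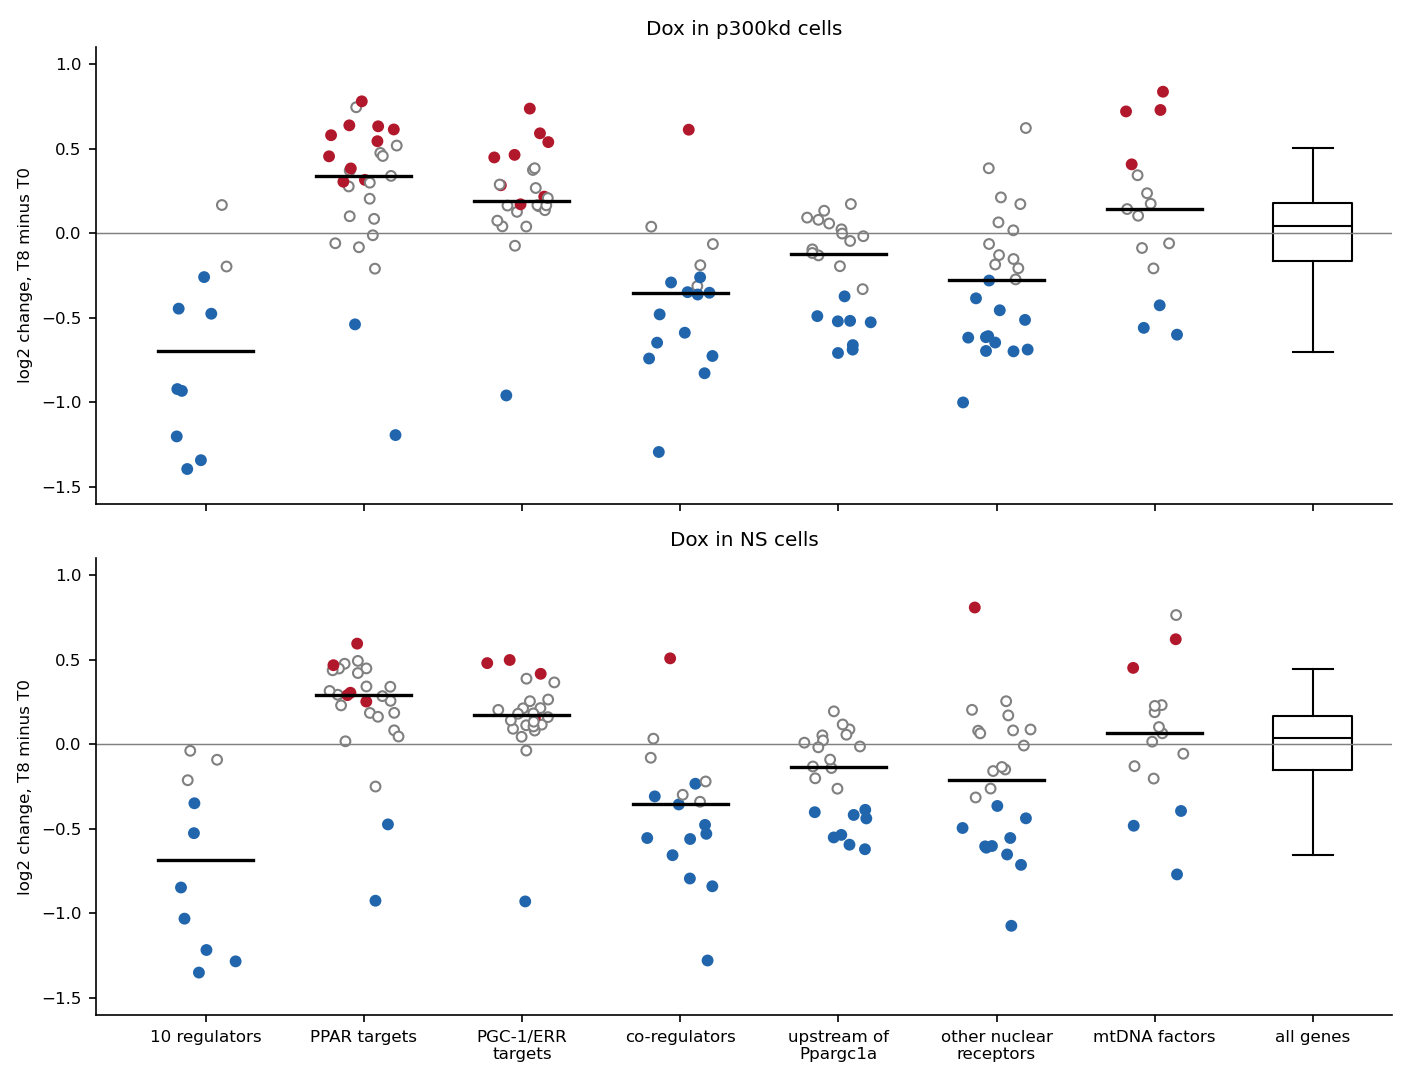
Log2 change after 8 h of doxorubicin (y axis) for the 10 regulators and 6 gene lists (x axis), in p300kd cells (upper panel) and NS cells (lower panel); each circle is a gene, red or blue where it rose or fell at an adjusted p under 0.05, the bar is the list's median, and the box shows all genes (quartiles, whiskers from the 5th to the 95th percentile). The regulators have medians of -0.70 and -0.69, the PPAR targets 0.34 and 0.29.

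Cofactors that nuclear receptors and PGC-1 use mostly fell. Of 17 measured coactivators, corepressors and modifying enzymes 12 fell and 1 rose in p300kd cells and 11 fell and 1 rose in NS cells, with medians of -0.35 and -0.36 (17.5% and 16.4% of all genes fell). Without experiment 2 the falls numbered 7 in p300kd cells and 6 in NS cells. Nr0b2, which encodes SHP, a repressor of nuclear receptors, had 6.74, 6.45 and 6.79 in p300kd T8 against 7.64, 8.06 and 8.16 in p300kd T0, and 6.73, 6.45 and 7.10 in NS T8 against 7.80, 8.00 and 8.31 in NS T0. Its changes were -1.29 and -1.28 (adjusted p = 0.000177 and 0.000227, limma). Pprc1, a PGC-1 relative that works with NRF1, fell, at -0.74 in p300kd cells and -0.84 in NS cells. Ncoa6 (-0.83 and -0.79) and Kat2a, whose product GCN5 acetylates PGC-1α (-0.73 and -0.66), fell too, while its relative Kat2b rose (0.61 and 0.51). The Kat2b call was lost without experiment 2 or 3, and in NS cells also without any of 4 single arrays. Ep300 had -0.31 in p300kd cells and -0.34 in NS cells and did not pass (adjusted p = 0.0783 and 0.0641), though it did in the blocked fit (0.00249 and 0.00153). Ncoa2 in NS cells (-0.30) did not pass either (0.0105 in the blocked fit), nor did Lpin1 in p300kd cells (-0.19).

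Of 22 genes that act upstream of Ppargc1a 8 fell and 0 rose in p300kd cells and 8 fell and 0 rose in NS cells, with medians of -0.12 and -0.14. Over all genes 17.5% and 16.4% fell, and 13.9% and 11.1% rose. Adrb1, which encodes the β1-adrenergic receptor, fell, at -0.71 in p300kd cells and -0.62 in NS cells. Crtc1, a coactivator of CREB, fell, at -0.53 and -0.59, and Mef2d, of the muscle factors that act on the Ppargc1a promoter, was at -0.69 and -0.55. Crtc2 (-0.66) fell in p300kd cells, and its NS mean went from 10.52 at 0 h to 10.10 at 8 h. Tfeb, a factor of lysosome genes that induces Ppargc1a in the mouse, fell in NS cells (-0.54). Its p300kd mean went from 8.95 at 0 h to 8.44 at 8 h. Creb1 had -0.33 and -0.26 and Yy1 -0.20 and -0.20, and none of these 4 values passed. With the block Creb1 passed in p300kd cells (adjusted p = 0.0207) and Yy1 in both (0.0445 and 0.0411). The call of Adrb1 in NS cells was lost without experiment 2, and those of Crtc1 without experiment 3. Without experiment 2 the number that fell in NS cells was 3.

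Factors of mitochondrial DNA transcription and maintenance, the partners of TFAM, were called at shares near those of all genes. Of 15 measured, 4 rose and 3 fell in p300kd cells (median 0.14) and 2 rose and 3 fell in NS cells (median 0.06), beside 13.9% of all genes higher and 17.5% lower in p300kd cells, and 11.1% higher and 16.4% lower in NS cells. Over the alternatives the rises ran from 2 to 7 and the falls from 1 to 4 in p300kd cells, and from 1 to 5 and from 1 to 3 in NS cells. Twnk, which encodes the mitochondrial DNA helicase, rose by 0.73 and 0.62, with 9.60, 9.69 and 9.66 in p300kd T8 against 8.72, 8.97 and 9.07 in p300kd T0. Slirp, which encodes an RNA-binding protein of mitochondria, rose by 0.72 in p300kd cells and 0.45 in NS cells. Polg2, an accessory subunit of the mitochondrial DNA polymerase, rose in p300kd cells (0.84) and had 0.76 in NS cells without passing (adjusted p = 0.0620), which the blocked fit brought to 0.00541. Lrpprc (0.41) rose in p300kd cells, and its NS mean went from 9.64 at 0 h to 9.87 at 8 h. Mterf1 (-0.56 and -0.77), Tfb1m (-0.60 and -0.48) and the elongation factor gene Tefm (-0.43 and -0.39) fell. Tfb2m, whose product starts transcription with TFAM, had 0.34 and 0.23, and Lonp1 had 0.24 in p300kd cells. None of these 3 values passed, but with the block Tfb2m (0.00686) and Lonp1 (0.00313) did in p300kd cells. The calls of Polg2, Lrpprc and Tefm, and that of Slirp in NS cells, were lost without experiment 2 or 3. Those of Tfb1m were lost without experiment 3, and that of Mterf1 in p300kd cells without experiment 1 or 2.

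In none of these lists did the interaction call a gene (limma; 0% of all genes). With the p300 siRNA the lists held 1 call besides Ep300, that of Lpl, which encodes lipoprotein lipase. Averaged over both times it fell, at -0.31 (SE 0.0567, adjusted p = 0.0257, limma), a call lost under 9 of 24 alternatives, among them the loss of experiment 2 or 3. With the experiment as a block 6 PPAR targets fell, averaged over both times, against 6.29% of all genes.

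Markers of other cell types moved with some of these comparisons. The summed intensity of 7 of 8 endothelial markers, as log2, ran from 10.22 to 10.28 in p300kd T8 against 10.53 to 10.54 in p300kd T0, and from 10.30 to 10.47 in NS T8 against 10.64 to 10.71 in NS T0, and 2 of 7 fell with either siRNA. For the other lists, median changes after the drug are given for p300kd and NS cells in turn. They were 0.13 and 0.04 over 10 fibroblast markers, and 0.15 and 0.16 over 8 macrophage and leukocyte markers. Over 7 markers of smooth muscle and pericytes they were 0.05 and 0.11, and over 2 erythroid markers 0.02 and 0.14. Single markers fell as far as some of the regulators. Cspg4 and Pdgfrb, of pericytes, had -1.12 and -0.93 in p300kd cells and -1.09 and -0.85 in NS cells, and were the 2 of 7 of their list that fell with either siRNA. Rgs5 of the same list went the other way without passing. Its mean went from 9.35 at 0 h to 10.01 at 8 h in p300kd cells, and from 9.39 to 9.82 in NS cells. With the experiment as a block 2 of these 7 rose and 3 fell in p300kd cells, and 2 rose and 2 fell in NS cells. Pdgfra was the 1 of 10 fibroblast markers that fell (-0.88 and -0.79), while 2 rose in p300kd cells and 1 in NS cells. Of the 8 macrophage and leukocyte markers 2 fell and 1 rose in p300kd cells and 1 fell in NS cells, Csf1r in both (-0.66 and -0.54). Beside these counts, 17.5% of all genes fell and 13.9% rose in p300kd cells, and 16.4% fell and 11.1% rose in NS cells. The 7 endothelial markers had -0.13 and -0.23, and the 10 myocyte markers, of which 0 were called (4 with the block in p300kd cells, 1 in NS cells), 0.04 and 0.04. With the p300 siRNA the summed macrophage and leukocyte markers ran from 11.94 to 12.22 in p300kd T8 against 12.34 to 12.57 in NS T8, and from 11.89 to 12.36 in p300kd T0 against 12.32 to 12.65 in NS T0. Averaged over both times 3 of these 8 fell, against 1.02% of all genes, and so did Cspg4 (-0.37, adjusted p = 0.0330, limma). The fibroblast markers had a median of -0.17 with 0 of 10 called, or 5 of 10 lower with the block (6.29% of all genes). The part of these cells in the changes of the regulators was not tested.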

How the data were processed

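Biotin-labelled cDNA from total RNA of 12 cultures was measured on arrays, and groups and replicate numbers were read from the sample titles. The deposited intensity of each probe set is linear (8.05 to 25315) and was made with Affymetrix Expression Console 1.1 and RMA, per the submitters' processing notes; the step that made them linear is not given in the sources used here. Log2 was taken. Of 29214 probe sets 15310 had 1 gene symbol, 323 several and 13581 none in the platform annotation; the brightest per symbol gave 14506 genes, of which 14480 had their Entrez identifier in a GRCr8 gene table used for current names. A model of 4 group means was fitted to all genes with limma 3.58.1 in R 4.3.3 (lmFit; trended eBayes; two-sided; 8 residual degrees of freedom) and tested on simulated data. Intervals are 95%; precision is limited by there being 3 arrays per group.

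Arrays of 1 number in different groups deviated together (18 pairs, correlation across genes from 0.172 to 0.689, median 0.504; 12 of 12 arrays closest to their own number), so the number is called the experiment. The model ignores it; the block is an alternative. Regulators and gene lists were chosen with earlier results of these data known. Named were all 10 regulators, Ep300, up to 4 called genes per list and direction, up to 2 uncalled genes per list after the drug, and the 5 genes closest to Ppargc1a and to Ppargc1b. This choice was made within each comparison, so a gene named with 1 siRNA was not thereby unchanged with the other. The lists were PPAR targets, PGC-1 and ERR targets, cofactors, upstream regulators, other nuclear receptors, mitochondrial DNA factors and 6 marker lists. Promoters are the 250 bases before RefSeq gene starts. Figures were drawn with matplotlib 3.10.9.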

Additional observations from a re-analysis of the deposited data

How the results depend on the processing

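Over 25 alternatives (24 for the average and the interaction) the number of regulators called after the drug ran from 6 to 9 in p300kd cells and from 3 to 8 in NS cells; leaving out 1 array or 1 experiment gave 6 to 9 and 3 to 8, and the lowest value in NS cells, 3, came without experiment 2. Tried were a fixed or random block for the experiment, a fit of the compared groups alone, dropping dim genes, each array centred on its median, quantile normalisation, eBayes without a trend or robust, the mean of all probe sets of a gene, all probe sets, and each experiment and each array left out. With the replicate number as a block 9 regulators were called in p300kd cells and 8 in NS cells; it added the calls of Esrra and Ppard given above and changed no other call of a regulator, while the number of genes called rose to 6639 from 4560 in p300kd cells and to 6317 from 3992 in NS cells. Of 15 calls of a regulator after the drug 8 held under all alternatives, and no called value turned direction. Uncalled changes did: in NS cells that of Esrra ran from -0.13 to 0.01 and that of Tfam from -0.14 to 0.13. With the p300 siRNA and in the interaction the count was 0 under every alternative. The interaction called 0 of all genes each time, so its count could not have been higher. Without experiment 2 or without experiment 3 the same held for the p300 siRNA, at either time and averaged. Without experiment 2 the genes called numbered 2269 in p300kd cells and 1782 in NS cells. Array centring moved the share of rises: 3800 rose and 1832 fell in NS cells, against 1617 and 2375, and 4344 rose and 1991 fell in p300kd cells, against 2017 and 2543.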

Other observations

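Genes of other nuclear receptors were called lower after 8 h of doxorubicin more often than higher. Of 24 measured, 12 fell and 0 rose in p300kd cells (median -0.28; 17.5% of all genes fell) and 10 fell and 1 rose in NS cells (median -0.21; 16.4% fell). Without experiment 3 the falls numbered 9 and 6. Rara, which encodes the retinoic acid receptor α, had 10.25, 10.16 and 10.11 in p300kd T8 against 11.25, 11.03 and 11.23 in p300kd T0, and 10.38, 10.04 and 10.19 in NS T8 against 11.37, 11.12 and 11.35 in NS T0. Its changes were -1.0 and -1.07 (SE 0.105, adjusted p = 2.00e-05 and 1.49e-05, limma). The clock receptor gene Nr1d2 fell, at -0.69 in p300kd cells and -0.71 in NS cells. Nr1d1 (-0.70) and Nr2f2 (-0.70) fell in p300kd cells. Their NS means went from 10.79 and 9.52 at 0 h to 10.29 and 8.97 at 8 h. The corticosteroid receptor genes Nr3c2 (-0.65) and Nr3c1 (-0.61) fell in NS cells, the call of Nr3c1 being lost without experiment 3. In p300kd cells the means of Nr3c2 and Nr3c1 went from 9.79 and 11.06 at 0 h to 9.27 and 10.45 at 8 h. Nr4a2, an immediate early receptor gene, rose in NS cells (0.81, adjusted p = 0.0194), a call that 5 of 25 alternatives ended, the loss of experiment 2 or of experiment 3 among them. It had 0.62 in p300kd cells (adjusted p = 0.0563; 4.91e-05 in the blocked fit). Rxrg (-0.31) and Thrb (-0.26) in NS cells and Vdr (0.38) in p300kd cells did not pass, though Thrb (0.0156) and Vdr (0.00585) did in the blocked fit.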
